A study of Mus musculus with 10 samples.

Results

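The genes described here are 10 mouse genes of neutrophil recruitment, read in liver RNA after a gavage of ethanol or of maltose. They are the chemokine genes Cxcl1 and Cxcl2, the alarmin genes S100a8 and S100a9, the receptor genes Il1r2, Csf3r and Cxcr2, and the adhesion molecule genes Sele, Icam1 and Vcam1. They were chosen by name, as genes with known roles in bringing neutrophils into tissue, at a time when earlier results of these data were known. Their probes were found through the RefSeq accession that the array files give for each probe. All 10 had a probe on the array, and 8 of them were among the 26124 genes that could be tested. Of these 26124, 15112 had a gene symbol, and the others were accessions without a matched symbol, each counted as a gene. Livers came from male mice of the C57BL/6N strain, and 10 two-colour Agilent arrays each set Cy5-labelled liver RNA against a Cy3-labelled commercial mixture of mouse RNAs (Ambion Mouse Assorted Total RNA). The control group (3 arrays) received maltose with the calories of 5 g/kg ethanol. The other groups received ethanol at 5 g/kg (4 arrays) or at 7 g/kg (3 arrays). No group received neither agent, and the maltose was matched in calories to the lower dose alone. The labels give no age and no time between gavage and collection. They do not say that each array held a separate animal, so p-values reflect array-to-array spread alone, which may be technical.

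Neutrophils leave the blood in steps. Tissue cells release CXC chemokines such as the products of Cxcl1 and Cxcl2, which neutrophils sense through the receptor CXCR2. Activated endothelium displays E-selectin, encoded by Sele, and the immunoglobulin-like ligands ICAM-1 and VCAM-1, encoded by Icam1 and Vcam1, on which leukocytes roll and then hold. In liver, much neutrophil arrest takes place in the sinusoids, where selectins are held to matter less than in other organs. S100A8 and S100A9 form calprotectin, an abundant protein of the neutrophil cytosol that other cells can also make. CSF3R is the receptor for the granulocyte growth factor G-CSF, and IL1R2 is a decoy receptor that binds interleukin 1 without signalling. Many of these genes are known targets of the transcription factor NF-κB.

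The bases just upstream of the start sites are shown for 6 members, because the results below set chemokine, adhesion and alarmin genes against each other and their upstream letters differ. They were taken from RefSeq (GRCm38.p6), which held 9 of the 10 members, all but Vcam1. Each run is 200 bases, 5′ to 3′ on the gene's strand, and ends at the base before the start. A longer NF-κB pattern (GGG, any 3 bases, then TTCC), a shorter one (GGANNTTCC) and the TATA-box pattern TATAAA were searched on both strands over 250 bases, and every match is in capitals. The NF-κB patterns can overlap each other, and a match is a description of the letters, not a binding site. The coordinates are chr5:90891045-90891244 (+ strand) for Cxcl1, chr5:90903699-90903898 (+ strand) for Cxcl2, chr1:164048034-164048233 (+ strand) for Sele, chr9:21015740-21015939 (+ strand) for Icam1, chr3:90668871-90669070 (+ strand) for S100a8 and chr3:90695722-90695921 (- strand) for S100a9.
Cxcl1: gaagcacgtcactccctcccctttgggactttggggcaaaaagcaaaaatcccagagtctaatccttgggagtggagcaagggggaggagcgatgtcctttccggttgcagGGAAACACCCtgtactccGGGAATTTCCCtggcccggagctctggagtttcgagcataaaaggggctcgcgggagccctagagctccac
Cxcl2: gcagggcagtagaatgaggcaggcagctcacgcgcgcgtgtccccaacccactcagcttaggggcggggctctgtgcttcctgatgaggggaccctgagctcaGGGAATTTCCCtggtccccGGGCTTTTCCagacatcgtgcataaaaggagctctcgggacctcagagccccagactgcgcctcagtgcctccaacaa
Sele: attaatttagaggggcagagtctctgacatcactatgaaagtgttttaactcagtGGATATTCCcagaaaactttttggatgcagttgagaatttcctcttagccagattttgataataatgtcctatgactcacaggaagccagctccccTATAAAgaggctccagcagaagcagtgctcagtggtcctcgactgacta
Icam1: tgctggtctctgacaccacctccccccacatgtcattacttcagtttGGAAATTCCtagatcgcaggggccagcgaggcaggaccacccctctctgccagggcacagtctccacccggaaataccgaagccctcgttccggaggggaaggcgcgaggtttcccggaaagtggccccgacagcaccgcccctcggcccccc
S100a8: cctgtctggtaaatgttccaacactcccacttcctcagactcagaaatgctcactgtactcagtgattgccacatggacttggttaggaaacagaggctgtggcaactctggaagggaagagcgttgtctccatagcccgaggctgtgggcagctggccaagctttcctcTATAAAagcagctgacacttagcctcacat
S100a9: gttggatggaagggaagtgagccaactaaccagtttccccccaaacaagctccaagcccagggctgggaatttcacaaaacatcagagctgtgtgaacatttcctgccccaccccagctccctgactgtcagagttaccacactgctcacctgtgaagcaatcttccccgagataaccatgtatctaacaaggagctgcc

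The Cxcl1 run held GGGAATTTCC 71 bases upstream of the start and, on the other strand, a second match of the longer pattern 89 bases upstream. The Cxcl2 run held GGGAATTTCC 97 bases upstream and GGGCTTTTCC 78 bases upstream. The longest stretch common to these neighbouring chemokine genes was GGGAATTTCCCTGG, 14 bases that begin with that first match. Sele held the shorter pattern as GGATATTCC 145 bases upstream and TATAAA 49 bases upstream, and Icam1 held GGAAATTCC 153 bases upstream. S100a8 held TATAAA 30 bases upstream and neither NF-κB pattern, and no pattern was found in the S100a9 window. Of the members not shown, Il1r2 held GGAACTTCC 106 bases upstream, Csf3r held GGAAGGTCCC 129 bases upstream, and Cxcr2 had no match. Among 32851 RefSeq promoters searched the same way, 4.65% held the longer NF-κB pattern, 3.59% the shorter one, 6.95% held either and 12.4% held TATAAA.

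The values are log2 ratios of liver (Cy5) over reference (Cy3) on each array, so 0 is the level of the reference and a ratio has no unit. They can be compared between arrays for 1 probe but not between probes. A spot counted as well above background when the scanner software gave it that mark in the liver channel. The median liver signal per array was 121 to 219 scanner units over a local background of 21 to 24 units, 67.3% to 86.2% of spots stood well above background, and no spot was saturated. The number of arrays limits the precision, and the median standard error (SE) of a log2 difference over all genes was 0.12 to 0.128. Differences were tested in 1 limma fit over all 10 arrays, and the threshold was 0.05 on the Benjamini-Hochberg adjusted p, taken over the 26124 genes. Both ethanol groups were compared with the same 3 control arrays, so those comparisons share their controls.

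Against maltose, Cxcl1, S100a8, S100a9, Il1r2 and Sele rose at 7 g/kg, and Sele rose at 5 g/kg. These are 5 of the 8 tested members (62.5%) at 7 g/kg, where 9.01% of all tested genes passed and 4.66% rose, and 1 of 8 (12.5%) at 5 g/kg, where 3.8% of all genes passed and 2.23% rose. No member passed in the lower direction. The members were chosen with earlier results of these data known, so these shares are no independent test of the set. S100a8 (0 of 3 controls) and Il1r2 (1 of 3) met the filter of 3 arrays well above background through ethanol arrays, where they were higher, so these counts describe the members that could be tested and are no measure of all 10. Of the 5 tested members well above background on all 10 arrays, 0 passed at 5 g/kg, 2 at 7 g/kg and 1 between the doses. Between the doses, 2 of 8 members (25%), Cxcl1 and S100a8, were higher at 7 g/kg than at 5 g/kg, where 1.57% of all genes passed and 0.662% were higher. The median log2 difference of the 8 members was 0.43 at 5 g/kg, 0.88 at 7 g/kg and 0.28 between the doses, beside 0.003, 0.012 and 0.005 over all genes. Groups did not overlap, in either direction, for 2, 5 and 4 of the 8 members in the same order, beside 16.9%, 25.4% and 11% of all genes. Cxcr2, with only 2 values at 5 g/kg, was among them at 5 g/kg, where it was lower, and between the doses. Leaving out 1 array at a time gave 0 to 2 members at 5 g/kg (0 without control array 1, 2 without 5 g/kg array 4) and 4 to 5 at 7 g/kg. Between the doses it gave 1 to 3, with 1 when 7 g/kg array 1 or 2 or 5 g/kg array 1 or 2 was left out. In whole-liver RNA, a change in the number of cells of a type and a change in RNA per cell cannot be told apart.

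**Figure D1:**
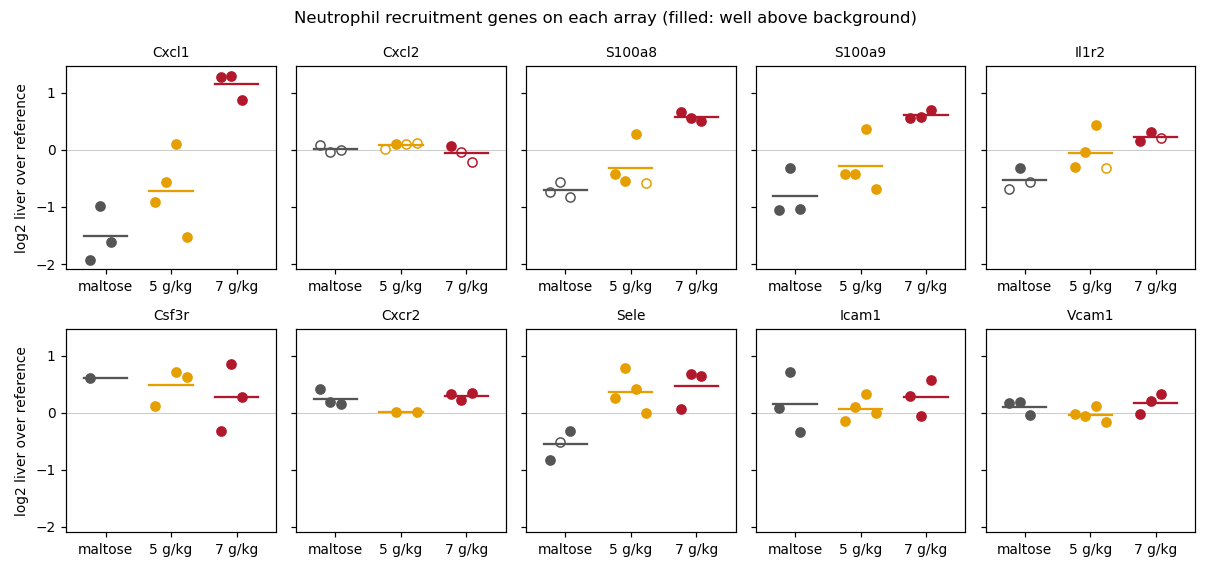
Log2 ratio of liver over reference (vertical axis) on each array in the maltose, 5 g/kg and 7 g/kg groups, 1 panel per gene. Points are arrays in replicate order, filled where the liver channel stood well above background, lines are group means, and outlier-marked spots are left out. The 3 arrays at 7 g/kg sit above all other arrays for Cxcl1, S100a8 and S100a9, while Icam1 and Vcam1 overlap in all groups.

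Cxcl1, encoding a main neutrophil chemokine of mice, was higher at 7 g/kg than in both other groups. The control arrays stood at −1.93, −0.99 and −1.62. The 5 g/kg arrays stood at −0.92, −0.56, 0.10 and −1.53, and the 7 g/kg arrays at 1.28, 1.30 and 0.88. All 3 arrays at 7 g/kg lay above every other array, and 3 of the 4 arrays at 5 g/kg lay above every control, while the fourth fell within the control range. In liver signal before normalization, the same probe read 444.5 to 480 units in controls, 582.5 to 1840 units at 5 g/kg and 3281 to 5055 units at 7 g/kg. Between the doses Cxcl1 rose 3.68-fold (log2 1.88, SE 0.297, n = 3 and 4, limma adjusted p = 0.00461). With the scanner software's own ratios this step was 1.95 and no longer passed (adjusted p = 0.0554). Against maltose the difference was 2.67 at 7 g/kg (SE 0.317, n = 3 and 3, limma adjusted p = 0.000114). The 5 g/kg difference was 0.79 with a 95% confidence interval of 0.15 to 1.42 and did not pass (n = 4 and 3, limma adjusted p = 0.193). Without array 4 at 5 g/kg, the one within the control range of log2 ratios, it was 1.06 and passed (adjusted p = 0.0327).

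Cxcl2, whose product binds the same receptor, was barely measurable. Its probe stood well above background on 0 of 3 control arrays, 1 of 4 arrays at 5 g/kg and 1 of 3 arrays at 7 g/kg, too few to be tested. The control arrays read log2 ratios of 0.09, −0.03 and −0.01, the arrays of the lower dose 0.02, 0.10, 0.10 and 0.12, and those of the higher dose 0.07, −0.04 and −0.21. The groups overlapped, and no group stood apart. Its liver signal was 45.0 to 60.0 units in controls, 55.0 to 103.5 units with the lower dose and 54.0 to 78.0 units with the higher dose, and the highest was array 2 at 5 g/kg. When dim probes were kept, the differences were 0.07 at 5 g/kg and −0.08 at 7 g/kg (limma adjusted p = 0.848 and 0.796). A change in Cxcl2 was therefore not detectable at this signal, and these values are not a measure of its absence.

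The alarmin genes S100a8 and S100a9 both rose at 7 g/kg. S100a8 stood at −0.74, −0.57 and −0.82 in controls, none of them well above background. The 5 g/kg arrays stood at −0.43, −0.54, 0.28 and −0.58, and 3 of these 4 measured it, while the 7 g/kg arrays stood at 0.66, 0.56 and 0.50 and all 3 did. The 7 g/kg arrays lay above all others, and array 3 at 5 g/kg lay apart from the rest of its group. Since no control array measured S100a8, its change at 7 g/kg is given as a lower bound, estimated at 2.41-fold over controls (fitted log2 1.28, SE 0.182, n = 3 and 3, limma adjusted p = 0.000445). No error was computed for this bound. That bound sets the mean liver signal at 7 g/kg against, on each control array, the lowest signal among probes well above background or the probe's own where higher, in normalized log2 units per channel, and it is open to dye bias because no dyes were swapped. Scanner ratios, computed without the offset of 50, gave a fitted value of 3.82, which is likewise set against controls not well above background and is no measure of size.

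Between the doses S100a8 was 0.89 higher at 7 g/kg (SE 0.17, n = 3 and 4, limma adjusted p = 0.0166). That step did not pass with scanner ratios (1.79, adjusted p = 0.108) or with the Cy5 channel alone (0.89, adjusted p = 0.255). It also did not pass without 7 g/kg array 1 (0.84, adjusted p = 0.0759), 7 g/kg array 2 (0.89, adjusted p = 0.0575), 5 g/kg array 1 (0.85, adjusted p = 0.0508) or 5 g/kg array 2 (0.81, adjusted p = 0.0582). Against maltose, the fitted S100a8 difference of 0.39 at 5 g/kg did not pass (SE 0.17, limma adjusted p = 0.271). The calculation used for the bound gave 1.29-fold there. It took in 5 g/kg array 4, which was not well above background, so this value is no lower bound. The fitted value, set against unmeasured controls, was 2.03 with scanner ratios, where it passed (adjusted p = 0.0383), and 0.20 without array 3 at 5 g/kg.

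S100a9, encoding the partner subunit, was well above background on all 10 arrays. The controls stood at −1.05, −0.32 and −1.03, the 5 g/kg arrays at −0.42, −0.43, 0.37 and −0.68, and the 7 g/kg arrays at 0.55, 0.58 and 0.69. The 7 g/kg arrays again lay above all others, whereas 3 of the 4 arrays at 5 g/kg lay below control array 2, the highest control. At 7 g/kg S100a9 rose 2.65-fold (log2 1.41, SE 0.233, n = 3 and 3, limma adjusted p = 0.00148). At 5 g/kg the difference was 0.51 (SE 0.218, limma adjusted p = 0.263), and 0.29 without array 3. Between the doses it was 0.89 with groups that did not overlap, and it did not pass (SE 0.218, limma adjusted p = 0.0591). This step passed under 5 of 26 alternative choices of processing or arrays. Among these were leaving out control array 2 (0.89, adjusted p = 0.0369) and leaving out 5 g/kg array 3 (1.11, adjusted p = 0.00493).

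Il1r2, the decoy receptor gene, rose at 7 g/kg on 1 of its 2 probes. On the brighter probe the controls stood at −0.68, −0.32 and −0.57, the 5 g/kg arrays at −0.30, −0.03, 0.43 and −0.32, and the 7 g/kg arrays at 0.15, 0.31 and 0.20. That probe was chosen for its higher mean log2 signal over both channels and all arrays (6.87 against 6.51), and it was also the higher one over the control arrays (6.65 against 6.52), though in their liver channel alone it was the lower (6.38 against 6.51). It was well above background on 1 control array, on 3 arrays at 5 g/kg and on 2 arrays at 7 g/kg. All 7 g/kg arrays lay above all controls, and the 5 g/kg arrays overlapped with both groups. At 7 g/kg the difference was 1.67-fold (log2 0.74, SE 0.171, n = 3 and 3, limma adjusted p = 0.013). The 5 g/kg value was 0.47 (SE 0.16, limma adjusted p = 0.142), and between the doses 0.27 with a 95% confidence interval of −0.07 to 0.61 (limma adjusted p = 0.612). The second probe was well above background on 4 of 10 arrays. It ranged over −0.06 to 0.03 in the control group, −0.21 to −0.05 with the lower dose and −0.22 to 0.15 with the higher dose. Its difference at 7 g/kg was −0.03 in a separate fit over 32618 probes (limma adjusted p = 0.941, taken over those probes), so the probes disagreed. The mean of both probes gave 0.36 and did not pass (adjusted p = 0.0716). The call on the brighter probe was also lost without control array 1 (0.66, adjusted p = 0.0665), without 7 g/kg array 2 (0.70, adjusted p = 0.0514) and with the Cy5 channel alone (0.61, adjusted p = 0.152), while scanner ratios gave 2.65.

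The receptor genes that neutrophils use to sense chemokines and G-CSF gave no called change. For Cxcr2 the controls stood at 0.41, 0.18 and 0.15, the 2 arrays of the 5 g/kg group with an unmarked spot at 0.02 and 0.01, and the 7 g/kg arrays at 0.33, 0.22 and 0.35. Both 5 g/kg values lay below all others, and the control and 7 g/kg arrays overlapped. Its difference from maltose was −0.23 at 5 g/kg (n = 2 and 3, 95% confidence interval −0.50 to 0.04, limma adjusted p = 0.414) and 0.05 at 7 g/kg (95% confidence interval −0.19 to 0.29, limma adjusted p = 0.872). A second Cxcr2 probe was the brighter one (mean log2 signal over both channels 11.13 against 9.97). It had 4 outlier-marked spots, which left 1 control value, and was not tested. With outlier-marked spots kept, the differences were −0.21 and 0.06 on the first probe and 0.09 and −0.05 on the second, so the probes differed in sign.

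Csf3r was well above background on all 10 arrays, but the scanner software marked its spot as an outlier on control arrays 2 and 3 and on 5 g/kg array 2, so 1 control value was left and it was not tested. The usable values were 0.61 in control array 1, 0.12, 0.71 and 0.62 on the 5 g/kg arrays, and −0.32, 0.85 and 0.28 on the 7 g/kg arrays. The 7 g/kg arrays spanned both the highest and the lowest value. With the marked spots kept, Csf3r differed from maltose by −0.23 at 5 g/kg and −0.41 at 7 g/kg and did not pass (limma adjusted p = 0.677 and 0.354).

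Among the adhesion genes, Sele rose at both doses and Icam1 and Vcam1 did not pass at either. The control arrays stood at −0.82, −0.52 and −0.32 for Sele, the 5 g/kg arrays at 0.26, 0.79, 0.42 and −0.01, and the 7 g/kg arrays at 0.07, 0.68 and 0.64. Every ethanol array lay above every control array, and the ethanol groups overlapped with each other. The probe was well above background on all arrays except control array 2. Sele rose 1.89-fold at 5 g/kg (log2 0.92, SE 0.189, n = 4 and 3, limma adjusted p = 0.0134) and 2.02-fold at 7 g/kg (log2 1.02, SE 0.202, n = 3 and 3, limma adjusted p = 0.00504). Between the doses Sele differed by 0.10, with a 95% confidence interval of −0.31 to 0.50 (limma adjusted p = 0.921). The 5 g/kg call was lost without control array 1 (0.78, adjusted p = 0.0849) and with the Cy5 channel alone (1.13, adjusted p = 0.0793). Scanner ratios gave 1.96 at 5 g/kg and 2.11 at 7 g/kg.

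For Icam1 the control arrays stood at 0.08, 0.71 and −0.33, the 5 g/kg arrays at −0.15, 0.10, 0.32 and −0.01, and the 7 g/kg arrays at 0.30, −0.05 and 0.57. The controls held both the highest and the lowest array, and all groups overlapped. The difference from maltose was −0.09 at 5 g/kg (95% confidence interval −0.53 to 0.35, limma adjusted p = 0.894) and 0.12 at 7 g/kg (−0.35 to 0.59, limma adjusted p = 0.851). Its sign depended on single arrays, at 0.19 at 5 g/kg without control array 2 and −0.12 at 7 g/kg without control array 3. Vcam1 read 0.17, 0.18 and −0.04 on the control arrays, −0.03, −0.05, 0.11 and −0.16 on the 5 g/kg arrays and −0.02, 0.20 and 0.33 on the 7 g/kg arrays, and these groups overlapped too. Its difference was −0.14 at 5 g/kg (95% confidence interval −0.38 to 0.10, limma adjusted p = 0.64) and 0.07 at 7 g/kg (−0.19 to 0.32, limma adjusted p = 0.846). The intervals leave room for a change of up to 0.59 in Icam1 and 0.32 in Vcam1 at 7 g/kg. A second, dimmer Vcam1 probe stood at −0.08 to 0.17 over all arrays.

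**Figure D2:**
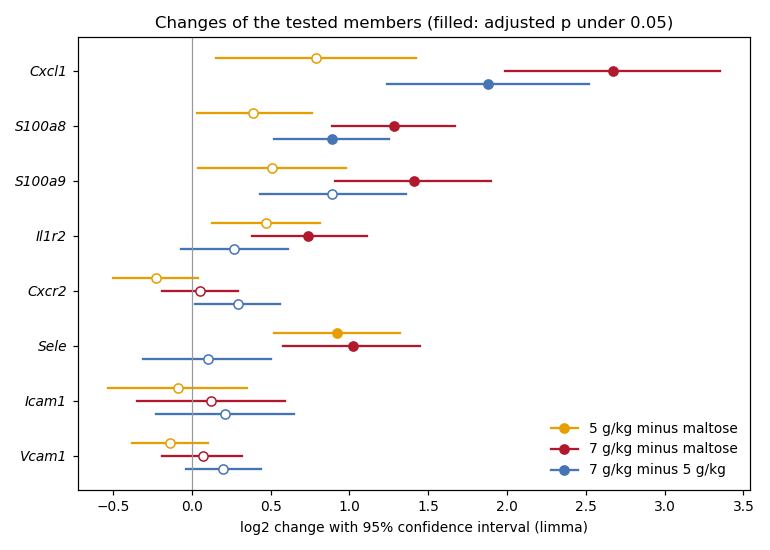
Log2 differences (horizontal axis) of the 8 tested members in the 3 comparisons, as points with 95% confidence intervals from the limma fit. Filled points passed at an adjusted p under 0.05: 1 member at 5 g/kg, 5 at 7 g/kg and 2 between the doses.

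The spread within the 5 g/kg group had a shape that several members shared. Array 3 of that group was its highest for Cxcl1 (0.10), S100a8 (0.28), S100a9 (0.37), Il1r2 (0.43), Icam1 (0.32) and Vcam1 (0.11), and array 2 was its highest for Sele (0.79). Array 4 was its lowest for Cxcl1, S100a8, S100a9, Il1r2, Sele and Vcam1. Array 3 lay on slide 1 of the 4 slides, together with 7 g/kg array 2 and with no control array, so no within-slide difference from maltose exists for it. Without slide 1 the 5 g/kg difference was 0.51 for Cxcl1, 0.20 for S100a8, 0.29 for S100a9, 0.31 for Il1r2 and 0.90 for Sele, of which Sele passed (limma adjusted p = 0.0342). At 7 g/kg without slide 1, Cxcl1 stood at 2.59, S100a8 at 1.29, S100a9 at 1.42, Il1r2 at 0.70 and Sele at 0.91, and all passed.

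Slides were the technical batch that the files show, each scanned once, and no slide held 1 group alone. Within the 2 slides that held both control and 7 g/kg arrays, Cxcl1 differed by 2.27 and 2.50, S100a8 by 1.22 and 1.31, S100a9 by 0.87 and 1.72, Il1r2 by 0.47 and 0.77, and Sele by 0.59 and 0.95. All 10 of these differences were above 0. This had to be so, because the 7 g/kg and control arrays did not overlap for these members, and it adds no support. Within the 3 slides that held control and 5 g/kg arrays, Sele differed by 0.31 to 1.31, Cxcl1 by 0.09 to 1.01 and S100a9 by −0.12 to 0.63. Between the doses, Cxcl1 differed by 1.20 to 2.41 within 3 slides, S100a8 by 0.28 to 1.19, and Sele by −0.72 to 0.64. With slide as a block, the same 5 members passed at 7 g/kg, from 0.55 for Il1r2 (limma adjusted p = 0.0369) to 2.35 for Cxcl1 (limma adjusted p = 0.000118), and Sele passed at 5 g/kg (0.86, limma adjusted p = 0.0417).

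**Figure D3:**
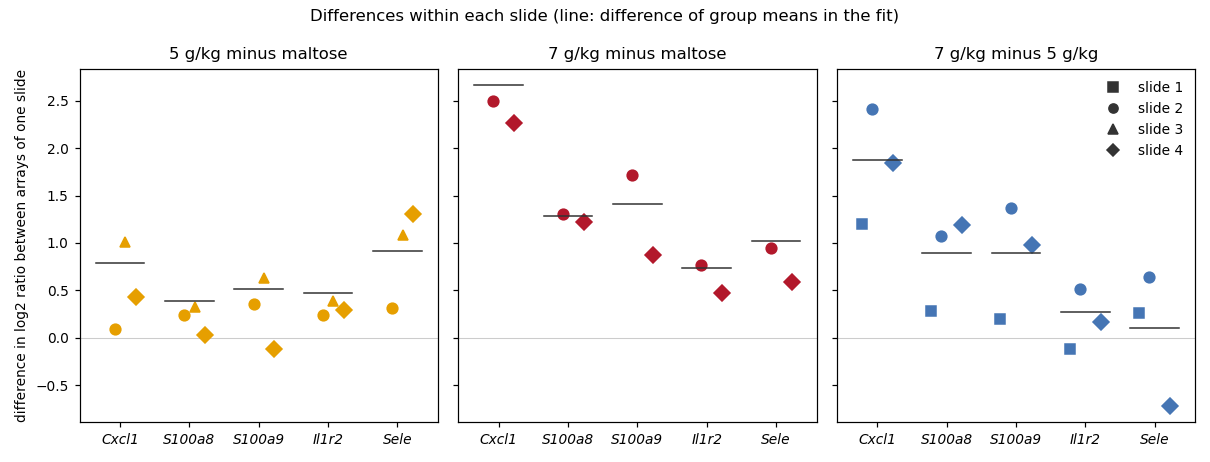
Difference in log2 ratio (vertical axis) between single arrays of different groups on the same slide, for the 5 members that passed at 7 g/kg, in the 3 comparisons. Marker shape gives the slide and the dark line the difference in the fit over all arrays. Every within-slide difference of 7 g/kg from maltose lies above 0, which follows from groups that did not overlap. Between the doses Sele ranges from −0.72 to 0.64.

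Across the 10 arrays, the levels of Cxcl1, S100a8 and S100a9 followed one another closely, with Pearson r of 0.968 (Cxcl1 with S100a8), 0.964 (Cxcl1 with S100a9) and 0.969 (S100a8 with S100a9). Il1r2 followed them at 0.882 to 0.925. Sele followed Il1r2 at 0.795, Cxcl1 at 0.672, S100a9 at 0.655 and S100a8 at 0.587, and Icam1 followed Sele at 0.00475. These arrays share a reference and fall into dose groups, so the coefficients describe the arrays and carry no test. Among all genes with a symbol and values on all 10 arrays, those most like Cxcl1 were Cpne8 (0.991), Actl6a (0.978), Junb (0.975), B3galt1 (0.974) and Hmox1 (0.966). Those most like S100a8 were Ambp (0.992), Junb (0.978), Cpne8 (0.972) and the acute phase genes Saa2 (0.968) and Saa1 (0.961). For S100a9 they were Cpne8 (0.978), Bhlhe40 (0.973), 4930402F06Rik (0.967), B3galt1 (0.964) and Ambp (0.957). Among the genes most like Il1r2 were Ott, Bicdl2, Rpusd4 and Gal3st2 (0.972 to 0.979), and those most like Sele were Olfr772, Mpnd, Garem1, Arhgap26 and Cnih4 (0.921 to 0.940).

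Other genes of the recruitment pathway were read from 7 lists arranged by role, which held 78 genes besides the 10 members, 67 of them tested. After 5 g/kg 5 rose and 1 fell, at 7 g/kg 13 rose and 2 fell, and between the doses 2 were higher at 7 g/kg. Their median log2 difference was 0.08, 0.14 and 0.07. Over all tested genes, 3.8% passed at 5 g/kg, 9.01% at 7 g/kg and 1.57% between the doses, and the list and marker counts below stand beside these shares. The counts given next for each list include the members in it.

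Of 13 chemokine genes 8 were tested, and besides Cxcl1 only Cxcl12 passed. Cxcl12, whose product holds neutrophils in bone marrow through the receptor CXCR4, fell by 1.00 at 5 g/kg (SE 0.157, limma adjusted p = 0.00243) and by 1.54 at 7 g/kg (SE 0.168, limma adjusted p = 5.9e-05). Cxcr4 itself stood at 0.03 and 0.01. The monocyte chemokine gene Ccl2 stood at 0.35 and 0.30 and did not pass (limma adjusted p = 0.0657 and 0.109). Cxcl5, Cxcl9, Cxcl10 and Ccl4 were not tested. None of the 5 tested of 10 cytokine genes that induce chemokines passed: Il1b stood at 0.06 and 0.05 and Tnf at −0.06 and 0.06, while Il6 was well above background on 1 of 10 arrays and was not tested.

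Among 17 tested receptor and signalling genes, 1 rose at 5 g/kg, and at 7 g/kg 4 rose and 1 fell. Il1r1, the signalling receptor for interleukin 1, rose 3.39-fold at 5 g/kg (log2 1.76, SE 0.216, limma adjusted p = 0.000378) and 5.57-fold at 7 g/kg (log2 2.48, SE 0.231, limma adjusted p = 1.6e-05). Its coreceptor gene Il1rap fell by 0.42 at 7 g/kg (limma adjusted p = 0.0173), and Il1rn, encoding the receptor antagonist, stood at 0.27 and did not pass. The tumour necrosis factor receptor gene Tnfrsf1a rose by 0.91 at 7 g/kg (limma adjusted p = 0.00518) and the interleukin 17 receptor gene Il17ra by 0.55 (limma adjusted p = 0.0323).

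All 13 endothelial adhesion and junction genes were tested, of which 3 rose at 5 g/kg (Sele, Jam2 and Cdh5) and 5 at 7 g/kg. The junction genes Jam2 rose by 0.67 and 0.89 and Cdh5 by 0.59 and 0.68 at the respective doses, and Pecam1 rose by 0.59 and Esam by 0.37 at 7 g/kg. Selp, encoding the other endothelial selectin, stood at 0.15 and 0.13 and did not pass (limma adjusted p = 0.534 and 0.549). On the leukocyte side, 9 of 10 adhesion genes were tested, integrin and selectin ligand genes among them, and limma called 0 in each comparison.

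Of 13 tested genes of the NF-κB system, 1 rose at 5 g/kg and 5 at 7 g/kg. Bcl3, encoding a nuclear protein of the inhibitor family, rose 2.17-fold at 5 g/kg (log2 1.12, SE 0.245, limma adjusted p = 0.0199) and 3.45-fold at 7 g/kg (log2 1.79, SE 0.262, limma adjusted p = 0.000587). The inhibitor gene Nfkbib rose by 0.84 at 7 g/kg and was 0.51 higher there than at 5 g/kg (limma adjusted p = 0.0113). At 7 g/kg Nfkbiz rose by 0.66, the subunit gene Relb by 0.58 and Tnfaip3, encoding the feedback inhibitor A20, by 0.43.

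Of 10 neutrophil granule and alarmin genes, 1 rose at 5 g/kg, 3 at 7 g/kg and 2 between the doses. Besides S100a8 and S100a9 this was Lcn2, whose iron-scavenging product is stored in neutrophil granules and is also made by hepatocytes as an acute phase protein. Lcn2 rose 9.24-fold at 5 g/kg (log2 3.21, SE 0.464, limma adjusted p = 0.0014) and 38.7-fold at 7 g/kg (log2 5.27, SE 0.496, limma adjusted p = 1.63e-05). The granule genes Ltf (0.29), Camp (−0.13), Ngp (0.11), Mmp8 (0.31) and Mmp9 (0.01) did not pass at 7 g/kg.

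**Figure D4:**
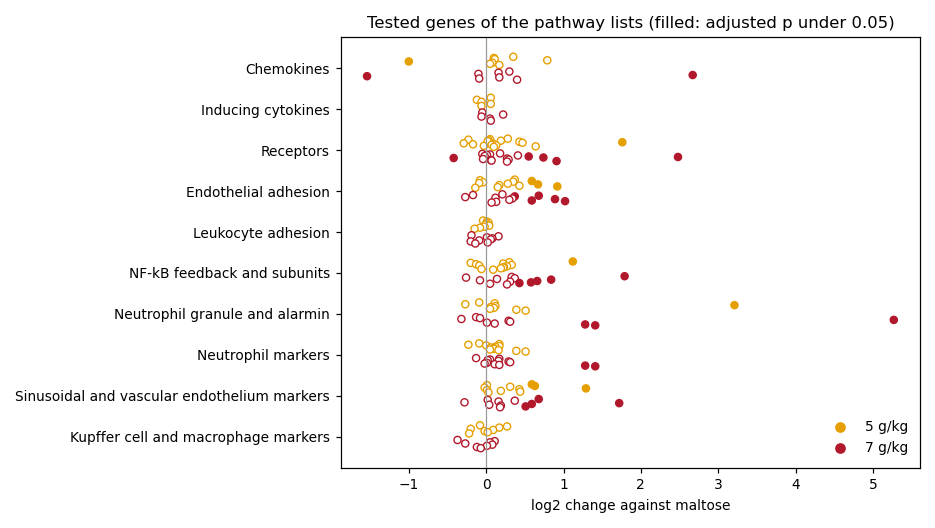
Log2 difference from maltose (horizontal axis) of each tested gene in the 7 lists by role and in 3 marker lists, the members included, with 5 g/kg and 7 g/kg in separate colours. Filled points passed at an adjusted p under 0.05. Among neutrophil markers, S100a8 and S100a9 are the filled points, at 1.28 and 1.41.

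Markers of the cells that could carry these transcripts were measured in the same arrays. Hepatocyte markers, averaged over 5 genes, lay above the reference on every array, with mean log2 ratios of 0.25 to 0.54 in the control group, 0.63 to 0.87 in the 5 g/kg group and 0.52 to 0.89 in the 7 g/kg group. Of 16 neutrophil markers 13 were tested, and those that passed at 7 g/kg were the members S100a8 and S100a9. The 10 tested markers that are no members stood at −0.13 to 0.31 at 7 g/kg, among them Elane (0.02) and Mpo (−0.02), which encode primary granule enzymes, and Retnlg (0.17) and Cd177 (0.17). Ly6g had no matched probe, and Stfa2l1 was well above background on 1 of 10 arrays. Over the 9 of these markers with values on all arrays, the mean log2 ratio per array ranged from −0.13 to −0.02 in the control group, from −0.15 to 0.15 in the 5 g/kg group and from −0.07 to 0.12 in the 7 g/kg group, and the groups overlapped.

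Of 11 endothelial markers 3 passed at 5 g/kg and 4 at 7 g/kg, beside 3.8% and 9.01% of all genes, with the sinusoidal gene Lyve1 at 1.29 and 1.72. Their mean per array, over 10 markers, was −0.51 to −0.31 in the control group, −0.10 to −0.06 in the 5 g/kg group and −0.16 to 0.02 in the 7 g/kg group, so every ethanol array lay above every control array, as for Sele. The same held for the means of 8 stellate cell markers (−0.19 to 0.00 in the control group, 0.12 to 0.26 and 0.12 to 0.19 in the 5 and 7 g/kg groups) and of 7 lymphocyte markers (−0.42 to −0.29, −0.22 to 0.01 and −0.18 to −0.04). The part of these markers in the Sele result was not tested. Other endothelial markers, Stab2 (0.01 and 0.04) and Clec4g (0.01 and 0.02), stood near 0. Limma called 0 of 8 tested Kupffer cell markers, 0 of 3 platelet markers and 0 of 4 cholangiocyte markers at either dose. Of the remaining lists, 1 of 5 monocyte markers passed at each dose (Plac8, 0.59 and 0.70), and 2 and 1 of 9 stellate cell markers, 1 and 2 of 8 lymphocyte markers and 0 and 2 of 7 hepatocyte markers passed at 5 and 7 g/kg.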

How the data were processed

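Liver RNA of 10 samples was measured on 2-colour arrays. Each spot's median intensity and local background intensity were read by Agilent Feature Extraction 11.5.1.1, per the file headers. The same software's processed signals gave the log10 ratio (Cy5 over Cy3) that the authors deposited with each array. A table of log2 ratios was also deposited for the whole series, its scale being read from its values, since no label states it. The array design names build mm8, so probe positions are not given.

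Median intensities were processed with limma 3.58.1 in R 4.3.3: normexp background correction (offset 50), loess within each array, control and outlier-marked spots left out, and spots of a probe averaged. The offset pulls ratios of dim probes towards 0. Probes needed a liver signal well above background on 3 arrays or more and 2 values per group, the latter a rule taken over from an earlier analysis of these data. Among the probes that met these rules, the one with the highest mean log2 signal over both channels stood for its gene. Of the values 1.42% were missing, and 59.2% of 41174 probes matched a symbol. All 10 arrays entered 1 fit of 3 group means (7 residual and 7.24 prior degrees of freedom), two-sided.

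The members, lists and tests were chosen with earlier results of these data known. The text names all 10 members, up to 6 passing genes of a list by smallest p, 7 genes whatever their result (Il1b, Tnf, Il6, Ccl2, Selp, Il1rn and Cxcr4), and for each passing member the 5 genes most like it, of which 1 is not reported here. Marker genes that did not pass were named to show their level. Replicate numbers were checked for pairing, and slides were used as a block and one by one. On simulated arrays for 7 g/kg against control over 26124 genes, the fit called 97% of 100 genes changed by a log2 of 1 and 100% of those changed by 2, with 13 false calls. The simulated noise was independent between arrays and drawn from the fit's own prior, without slide effects or a signal floor. These shares are therefore no measure of power for members near background or with a larger SE, such as Cxcl1 (0.317 at 7 g/kg). Alternatives covered background, normalization, channel, source of the values, filter, outliers, probe choice, prior, array weights, blocks and each array left out. Leaving out slide 1 was added after seeing the data.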

Additional observations from a re-analysis of the deposited data

How the results depend on the processing

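The 7 g/kg differences of Cxcl1 (2.35 to 2.93), S100a8 (1.13 to 3.82, fitted against unmeasured controls), S100a9 (1.20 to 1.65) and Sele (0.88 to 2.11) kept their direction and passed under every alternative in which they were tested; the highest adjusted p was 0.0408, for Sele with slide as a block. S100a8 and Sele were not tested under the filter for all 10 arrays. The cause of the changes below was not tested, except that a filter for all 10 arrays left 5 members to test. With that filter 0, 2 and 1 members passed at 5 g/kg, at 7 g/kg and between the doses. With scanner ratios 2 members passed at 5 g/kg and 0 between the doses, and the same numbers passed with the series table. With the Cy5 channel alone 0 passed at 5 g/kg and 1 between the doses. Leaving out single arrays gave 0 to 2, 4 to 5 and 1 to 3 members.

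Over all genes, 992, 2355 and 410 passed in the 3 comparisons. Scanner ratios gave 520 at 5 g/kg and 116 between the doses, the series table gave 584 and 138, and Cy5 alone 118, 587 and 46. Leaving out single arrays gave 469 to 1068, 1506 to 2360 and 203 to 423 genes, and leaving out slide 1 gave 255 between the doses. The share of higher genes among those that passed was 58.7%, 51.7% and 42.2%, and it was 75.4%, 67.0% and 52.4% with median centring and 67.4% between the doses with Cy5 alone.

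No pairing by replicate number was detected: deviations of same-numbered arrays correlated at −0.207 to 0.204 over 9 pairs. Other-numbered arrays gave −0.321 to 0.234 over 24 pairs. Arrays of the same slide, a known batch, gave −0.182 to 0.234, so these ranges cannot exclude pairing. With the replicate block 935, 2319 and 289 genes passed. At 5 g/kg 2 members then passed, Cxcl1 at 1.06 (limma adjusted p = 0.0285) being added, and between the doses 1, with S100a8 at 0.80 (limma adjusted p = 0.063).

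Signs turned for uncalled members alone. Keeping outlier-marked spots also changed the Cxcr2 probe, to one at 0.09, −0.05 and −0.14 in the 3 comparisons, while the probe used otherwise kept its signs (−0.21, 0.06 and 0.27). At 5 g/kg Vcam1 was 0.03 with Cy5 alone, and Icam1 ranged from −0.33 to 0.19 with single arrays left out. At 7 g/kg the sign turned for Cxcr2 with scanner ratios (−0.04), the series table (−0.04) and Cy5 alone (−0.29), and for Icam1 with Cy5 alone (−0.37), while Icam1 ranged from −0.12 to 0.40 with single arrays left out. Vcam1 was then −0.01 with scanner ratios and with the series table, and −0.01 to 0.16 with single arrays left out. Between the doses Sele was −0.04 with array weights, −0.03 with the replicate block and −0.03 to 0.29 with single arrays left out, and Icam1 was −0.11 with Cy5 alone. Of the member values under alternatives, 571 kept their direction and side of the threshold, 19 turned sign, 16 lost the call and 9 gained it. Some could not move: an added normalization of mean signal between arrays left the log2 ratios unchanged. Leaving out an array of the group outside a comparison also kept its difference. The count of 571 is therefore no measure of stability. Signal over background limits Cxcl2, S100a8 in controls and Il1r2.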
